A study of Mus musculus with 14 samples.

Results

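The genes described here are 10 heat shock chaperones and their regulator, chosen by name from 45802 features listed for mouse cortical neuron cultures: Dnajb1, Hspa1a, Hspa1b, Hspa8, Hsph1, Hspb1, Hsp90aa1, Hspe1, Cryab and Hsf1. Of these 10, 9 passed the filter on low signals and were tested, and Hspb1 did not. Total RNA was depleted of ribosomal RNA and sequenced, and the study asked how peptides made by the neuronal membrane proteasome (NMP) act on neuronal signalling. All 14 libraries came from primary cortical cultures of wild-type C57BL/6 mice at 12 days in vitro, harvested after 1 h of treatment. The Bic group (3 libraries) received 20 µM bicuculline, a blocker of GABA-A receptors that raises network firing. The NMP peptides group (3 libraries) received the purified peptides at 4% by volume. The NMP peptides (PK) group (3 libraries) received the peptides after cleavage by proteinase K at the same 4%. The NMP peptides APV group (3 libraries) received the uncleaved peptides at 4% together with 100 µM APV, an antagonist of NMDA receptors. The DMSO group (2 libraries) received 1% dimethyl sulfoxide, and only the labels of this group state a DMSO content, so that the solvent could differ between it and the rest. The replicates are called biological, but whether they came from separate animals or dishes is not said, and the p-values below reflect only how much these libraries vary.

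Heat shock proteins bind unfolded or newly made proteins and help them fold or be degraded. HSP70 proteins do this by binding and hydrolysing ATP, J-domain proteins such as DNAJB1 stimulate that hydrolysis, and HSP110 proteins such as HSPH1 exchange the nucleotide. The transcription factor HSF1 drives the inducible genes after proteotoxic stress through heat shock elements, which are inverted repeats of a short GAA unit in their promoters.

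Values are quantile-normalised log2 signals that behave as a per-length scale, and the number of reads behind them is unknown. The cultures carried the markers of their labelled cell type, with all 7 pan-neuronal markers passing the filter. Astrocyte markers (9 of 10 passed) and oligodendrocyte lineage markers (8 of 10) were also present, as were 2 of 6 mural and fibroblast markers. Of the microglial markers 0 of 8 passed, and of the endothelial markers 0 of 5. The cultures are therefore mixed, and in bulk RNA a change in the number of cells of a type and a change in RNA per cell cannot be told apart. Comparisons of different treatments share libraries, DMSO in particular, and are not independent of each other.

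Upstream sequence was taken from RefSeq (GRCm38.p6), which gave a window for 6 of the 10 genes. Dnajb1 and Hsph1 have 2 entries each, and the one used is at the annotated start of the gene for Dnajb1 and the first listed for Hsph1. That Hsph1 entry starts at 149636336, within the annotated gene, whose start on the minus strand is 149636498. Sequences of 200 bases ending just before the transcription start are shown for Dnajb1, the member whose signal changed, and for the inducible pair Hspa1a and Hspa1b, whose near-identity bears on how their reads could be assigned. Capitals mark heat shock elements of 2 inverted units, and each sequence runs 5′ to 3′ on the strand of its gene.
Dnajb1 (chr8:83607975-83608174, plus strand): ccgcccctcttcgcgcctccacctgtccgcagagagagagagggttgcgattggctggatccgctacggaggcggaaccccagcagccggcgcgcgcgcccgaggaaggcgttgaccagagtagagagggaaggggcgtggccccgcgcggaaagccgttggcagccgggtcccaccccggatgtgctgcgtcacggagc
Hspa1a (chr17:34972157-34972356, minus strand): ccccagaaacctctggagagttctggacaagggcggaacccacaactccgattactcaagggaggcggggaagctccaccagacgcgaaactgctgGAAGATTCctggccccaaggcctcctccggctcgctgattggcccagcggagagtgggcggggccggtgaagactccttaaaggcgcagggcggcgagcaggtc
Hspa1b (chr17:34959239-34959438, minus strand): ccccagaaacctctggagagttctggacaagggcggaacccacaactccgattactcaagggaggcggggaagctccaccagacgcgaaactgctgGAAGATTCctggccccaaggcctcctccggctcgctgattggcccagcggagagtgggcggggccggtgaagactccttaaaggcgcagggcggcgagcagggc
Hspe1, heat shock element only (chr1:55088059-55088076, plus strand): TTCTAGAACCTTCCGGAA
Both strands of the 250 bases before the start were searched for GAANNTTC and TTCNNGAA, the head-to-head and tail-to-tail forms of the 2-unit element. Of 32851 RefSeq windows of that length, 12.8% held at least 1 of them. Hspa1a and Hspa1b each held 1, from 104 to 97 bases before the start. Hsph1 held 1 (33 to 26 bases before the start used, a place inside the annotated gene) and Hspb1 held 2. In Hspe1, 3 matches overlapped over the 18 bases shown, which also hold the 3-unit element GAANNTTCNNGAA, present in 0.466% of windows. Of the 200 bases before the start of Hspe1, 159 are exon of Hspd1 on the opposite strand. The window of Dnajb1 held neither 2-unit form, and it held neither the cAMP response element TGACGTCA (1.55% of windows) nor the TATA box TATAAA (12.4% of windows). A match describes these letters and shows no binding, and a missing match says only that the letters are not in this window.

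Dnajb1 (chromosome 8, 83608175 to 83612653), the cytosolic J-domain partner of HSP70, was the member whose RNA rose with bicuculline. Its log2 signal was 5.08, 4.54 and 5.04 in the Bic libraries. It was 4.26, 4.21 and 3.94 in the NMP peptides libraries, 4.02, 4.02 and 3.81 in the NMP peptides (PK) libraries, and 4.03, 4.03 and 3.98 in the NMP peptides APV libraries, against 3.86 and 3.98 in the DMSO libraries. Every Bic library lay above all 11 others, while the other 4 groups followed each other closely, in the order NMP peptides, NMP peptides APV, NMP peptides (PK) and DMSO. Of all 10877 genes tested, 0.956% were likewise above the other 11 libraries in every Bic library.

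The Bic mean was 4.89 ± 0.30 (SD, n = 3), against 3.92 ± 0.09 in DMSO (SD, n = 2). The log2 fold change was 0.97 (SE 0.14, 95% interval 0.67 to 1.27), or 1.96-fold (limma, adjusted p = 0.002727). Dnajb1 was the 1 member of 9 tested that was called in this comparison, where 0.469% of all genes were called, all of them higher. An earlier analysis of these data had already called Dnajb1 in this comparison, so its call here is no independent support. The call rested on more than the 5 libraries compared: without DMSO replicate 2 the log2 fold change was 0.91 (limma, adjusted p = 0.06387), and fitted on the Bic and DMSO libraries alone it was 0.97 (limma, adjusted p = 0.1121).

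Bicuculline also raised Dnajb1 relative to each peptide treatment. Against NMP peptides (PK) it was 1.92-fold higher (log2 0.94, SE 0.13, limma adjusted p = 0.001126), with 0.533% of all genes called. Against NMP peptides APV it was 1.84-fold higher (log2 0.88, SE 0.13, limma adjusted p = 0.0009217), with 3.33% of all genes called and 2.38% called higher. Dnajb1 was again the only one of the 9 tested members called in each, and both calls held in all 15 alternatives tried. Against NMP peptides it was 1.69-fold higher (log2 0.75, SE 0.13, limma adjusted p = 0.0276), with 0.175% of genes called. That last call was lost in 8 of 15 alternatives, among them the omission of Bic replicate 1 (limma, adjusted p = 0.1395) or replicate 3 (0.159), and of NMP peptides replicate 1 (0.07503), 2 (0.07313) or 3 (0.1719).

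The peptides by themselves gave no called difference in Dnajb1. NMP peptides averaged 4.14 ± 0.17 (SD, n = 3), against 3.92 ± 0.09 in DMSO (SD, n = 2). The log2 fold change was 0.22 (SE 0.14, 95% interval -0.09 to 0.52), with overlapping libraries (limma, adjusted p = 0.9707). Across the 3 comparisons of peptide treatments with DMSO and the 3 among the peptide treatments, limma called 0 of the 9 members. At an unadjusted p under 0.05 there was 1 member for NMP peptides against DMSO (2.02% of all genes), 2 for NMP peptides APV against DMSO (11.5%) and 0 for NMP peptides (PK) against DMSO (1.05%). Among the peptide treatments there were 2 for NMP peptides against NMP peptides APV (15.8%), 1 for NMP peptides APV against NMP peptides (PK) (15.6%) and 0 for NMP peptides against NMP peptides (PK) (1.65%). The shares of all genes called in those comparisons were 0.0184% for NMP peptides, 0% for NMP peptides (PK) and 0.625% for NMP peptides APV against DMSO. They were 0.0827% for NMP peptides against NMP peptides (PK), 1.43% for NMP peptides against NMP peptides APV and 1.39% for NMP peptides APV against NMP peptides (PK). A limma F-test across the 5 groups called Dnajb1 alone among the members (adjusted p = 0.002351, with 1.65% of all genes called), and the other 8 had adjusted p from 0.4464 to 0.9347.

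**Figure D1:**
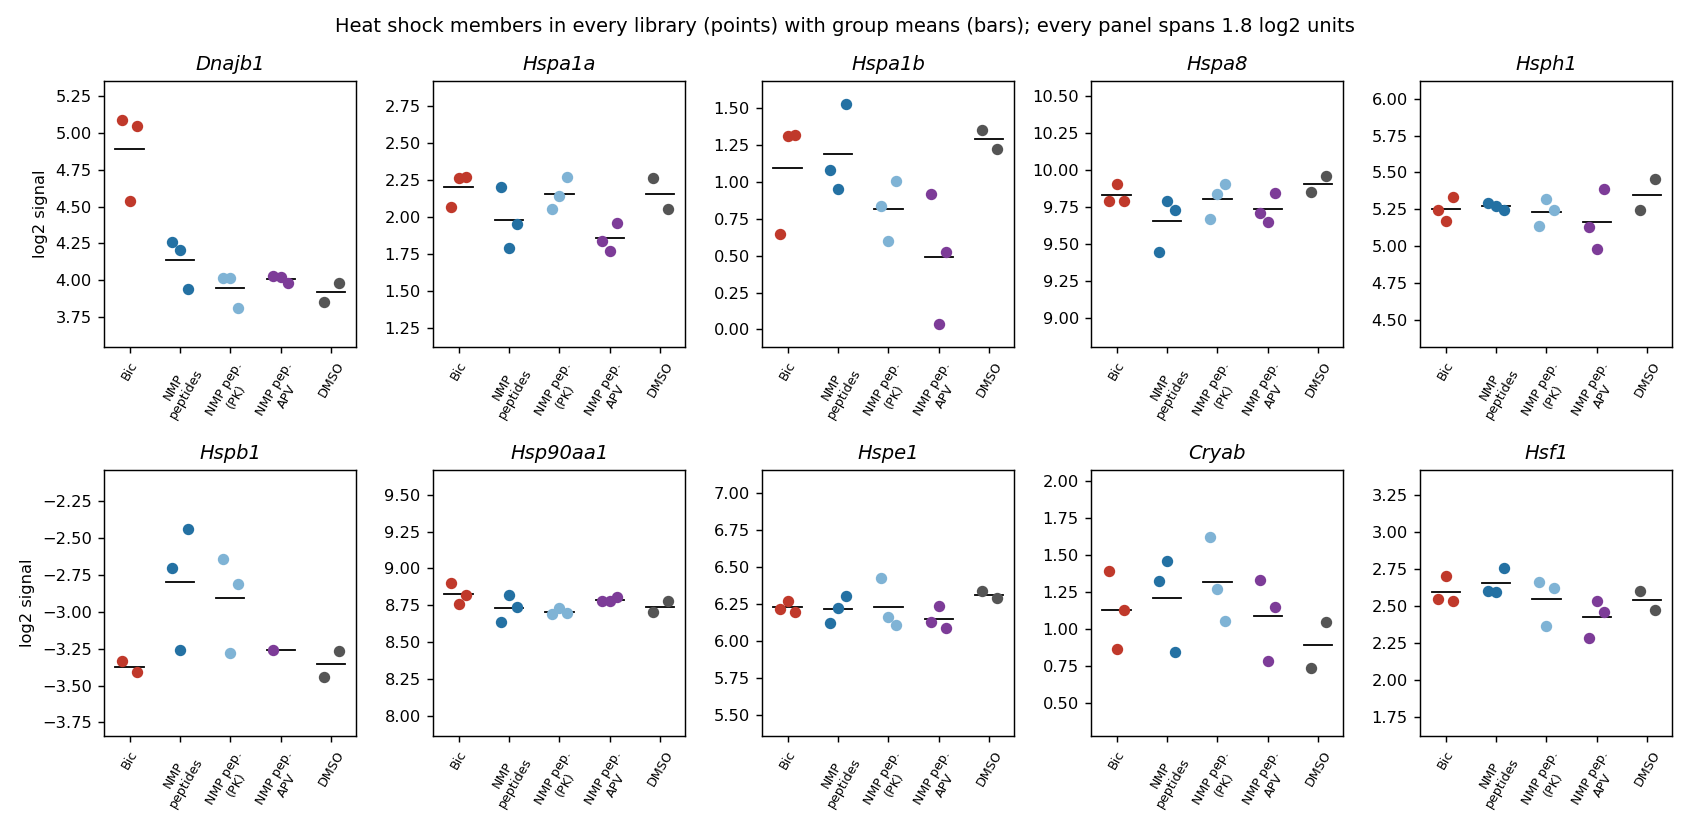
Log2 signal of each of the 10 genes in every library (points) with group means (bars), by group, on vertical axes that each span 1.8 log2 units. The 3 Bic libraries of Dnajb1, from 4.54 to 5.08, lie above its other 11, from 3.81 to 4.26, and Hspb1 has values in 11 of 14 libraries.

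The inducible HSP70 genes Hspa1a (chromosome 17, 34969359 to 34972156) and Hspa1b (chromosome 17, 34956429 to 34959238) had no called difference in any comparison of the fit reported. Hspa1a had log2 signals of 2.07, 2.26 and 2.27 in the Bic libraries, against 2.26 and 2.05 in the DMSO libraries. The groups overlapped, and the log2 fold change was 0.04 (95% interval -0.23 to 0.31). Hspa1b had 0.64, 1.31 and 1.32 in the Bic libraries, against 1.35 and 1.22 in the DMSO libraries. These groups overlapped too, with a log2 fold change of -0.20 (95% interval -0.75 to 0.36). In the NMP peptides libraries Hspa1a had 2.20, 1.79 and 1.95 and Hspa1b 1.08, 0.95 and 1.53. In the NMP peptides (PK) libraries Hspa1a had 2.06, 2.15 and 2.27 and Hspa1b 0.84, 0.60 and 1.01. Hspa1b was thus below both DMSO libraries in all 3 NMP peptides (PK) libraries, at a log2 fold change of -0.47 (95% interval -1.03 to 0.08), in a comparison where 11% of all genes had groups that did not overlap.

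Both genes had their lowest group mean with APV, as did Hsph1, Hspe1 and Hsf1, though no difference was called in the fit reported. Over the 9 tested members, the median log2 fold change in NMP peptides APV against DMSO was -0.16, against -0.05 over all genes. Hspa1a was 1.84, 1.77 and 1.96 in the NMP peptides APV libraries, below both DMSO libraries, at a log2 fold change of -0.30 (SE 0.13, limma adjusted p = 0.3786), which was -0.20 without DMSO replicate 2. Hspa1b was 0.92, 0.03 and 0.52 there, also below both DMSO libraries, at a log2 fold change of -0.80 (SE 0.26, limma adjusted p = 0.2392). In that comparison 29.8% of all genes had groups that did not overlap. Of the other tested members, Hspa8 and Hspe1 were likewise below both DMSO libraries there, and Hsp90aa1 was above them. Against NMP peptides APV, the log2 differences were 0.35 for Hspa1a and 0.60 for Hspa1b in Bic, and 0.70 for Hspa1b in NMP peptides (limma, adjusted p = 0.1238, 0.1858 and 0.1761). The value of Hspa1b in Bic was 0.37 without NMP peptides APV replicate 2 and 0.28 with array weights. On a scale of log2(value + 1), which shrinks changes of low genes, Hspa1b differed by -0.51 between NMP peptides APV and DMSO, and, relative to NMP peptides APV, by 0.38 in Bic and 0.44 in NMP peptides. Hspa1a also differed by -0.30 between NMP peptides APV and NMP peptides (PK) (limma, adjusted p = 0.219), a difference that was called with array weights (-0.36, limma adjusted p = 0.03927). In that comparison array weights called 571 of all 10877 genes, and the fit reported 151. Marker sums are given beside these values. The summed antilogged signal of 10 astrocyte markers was 414 to 429 in NMP peptides APV, against 381 to 382 in DMSO. That of 6 inhibitory neuron markers was 379 to 391, against 428 to 448 in DMSO. The latter sum is weighted to its most abundant marker, Sst, with 8.02, 8.11 and 8.12 in NMP peptides APV and 8.32 and 8.18 in DMSO. Of the 6, 2 had a higher mean in NMP peptides APV than in DMSO. In NMP peptides APV against DMSO no single marker of either list was called (limma, 0 of 9 astrocyte and 0 of 6 inhibitory neuron markers tested, with 2 of each at an unadjusted p under 0.05). In Bic against NMP peptides APV, limma called 1 of the 6 inhibitory neuron markers higher, where 2.38% of all genes were called higher. At an unadjusted p under 0.05, NMP peptides APV was higher for 4 of 9 astrocyte markers against NMP peptides and 3 against NMP peptides (PK). Of all genes, 15.8% and 15.6% passed that level there. Their part in the values of NMP peptides APV, for these genes and for Sgtb and Bag4 below, was not tested.

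The 2 genes are near-identical copies. Their longest open reading frames were equal at 98.1% of bases, the upstream sequences shown above differed at 1 of 200 bases, and 47.1% of 100-base stretches of the Hspa1a transcript occurred unchanged in Hspa1b. How the counting shared such reads between them is not given in the sources used here, so the separate values are uncertain. Their summed antilogged signal was 5.75 to 7.32 in Bic, 5.40 to 6.76 in NMP peptides, 5.94 to 6.82 in NMP peptides (PK), 4.43 to 5.46 in NMP peptides APV and 6.49 to 7.36 in DMSO. Hspa1a also shares 19.0% of its exon bases with Gm20481 on the opposite strand, and it is not stated whether the counting used strand.

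**Figure D2:**
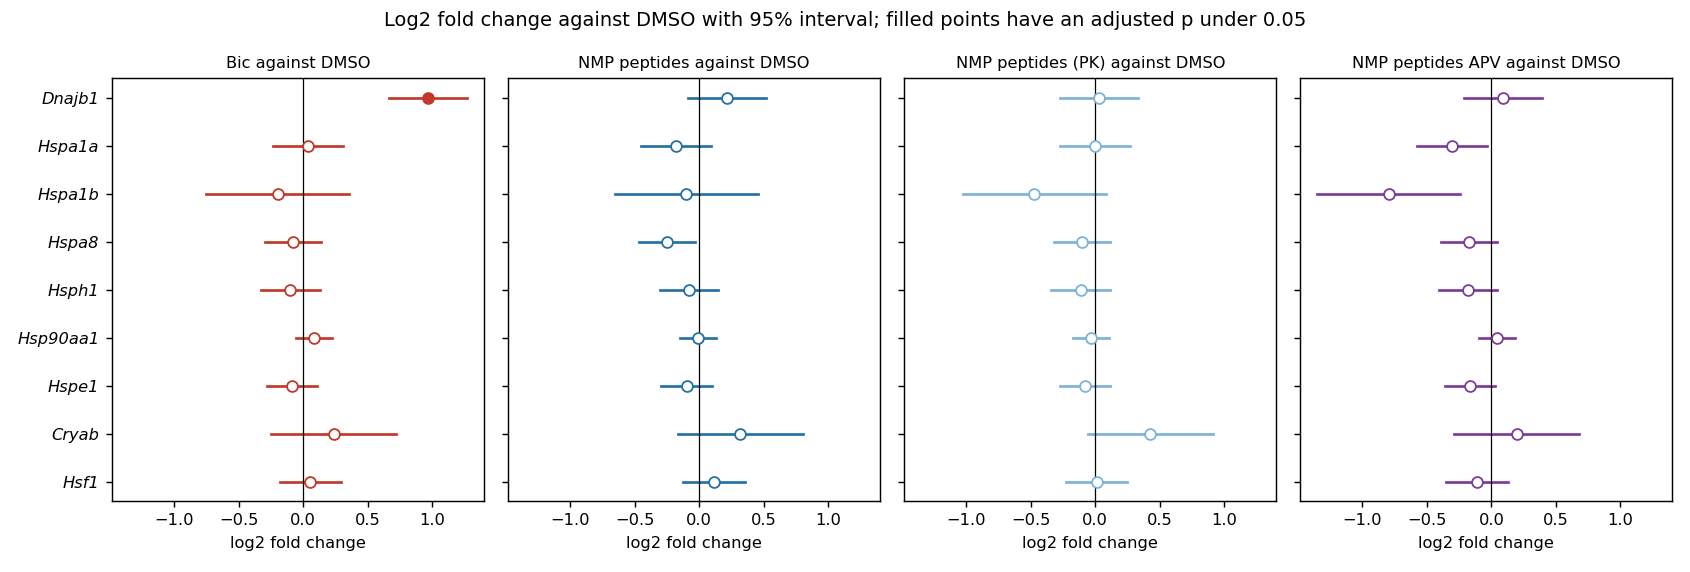
Log2 fold change of the 9 tested members against DMSO (points) with 95% intervals (lines), for each of 4 treatments. Only Dnajb1 in Bic is filled, at 0.97 with an interval of 0.67 to 1.27, and Hspa1b has the widest intervals.

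Hspa8 and Hsp90aa1 were the most abundant members. Hspa8 (chromosome 9, 40801276 to 40805202), the constitutive HSP70, ranked at percentile 99.9 of the valued features by mean signal. It lay between 9.44 and 9.96 in all 14 libraries, which on the per-length scale is a median of 210 times the signal of Hspa1a in the same library (152 to 256). It had 9.79, 9.91 and 9.79 in the Bic libraries, against 9.85 and 9.96 in the DMSO libraries. In the NMP peptides libraries it had 9.44, 9.79 and 9.73, all below DMSO, at a log2 fold change of -0.25 (SE 0.10, limma adjusted p = 0.9707), which was -0.15 without NMP peptides replicate 1. In that comparison 17.4% of all genes had groups that did not overlap.

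Hsp90aa1 (chromosome 12, 110691036 to 110696395), the inducible cytosolic HSP90, varied least of the members, from 8.64 to 8.90 across the libraries. Its Bic mean was 8.83 ± 0.07 (SD, n = 3), against 8.74 ± 0.05 in DMSO (SD, n = 2), a log2 fold change of 0.09 (95% interval -0.05 to 0.23). Hspe1 (chromosome 1, 55088148 to 55091317), the mitochondrial co-chaperonin HSP10, lay between 6.09 and 6.43, with a log2 fold change of -0.09 in Bic against DMSO (95% interval -0.28 to 0.11). It had 6.22, 6.27 and 6.20 in the Bic libraries, below the 6.34 and 6.29 of the DMSO libraries. The share of all genes with separate groups there is not reported here. The exons of Hspe1 overlap those of its opposite-strand neighbour Hspd1 by 7.6%.

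Hsph1 (chromosome 5, 149616843 to 149636498), the HSP110 nucleotide exchange factor, had 5.25, 5.17 and 5.33 in the Bic libraries, against 5.24 and 5.45 in the DMSO libraries. The groups overlapped, and the log2 fold change was -0.10 (95% interval -0.32 to 0.13). Hsf1 (chromosome 15, 76477362 to 76501155), the transcription factor of the response, had 2.55, 2.70 and 2.54 in the Bic libraries, against 2.60 and 2.47 in the DMSO libraries, with a log2 fold change of 0.06 (95% interval -0.18 to 0.29). RNA levels do not report on HSF1 activity, which is controlled largely on the protein. Hsf1 in NMP peptides exceeded NMP peptides APV by 0.23 (SE 0.10, limma adjusted p = 0.2901), a difference that was called with array weights (0.32, limma adjusted p = 0.04953). In that comparison array weights called 615 of all 10877 genes, and the fit reported 156.

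The small heat shock proteins, which hold unfolded proteins without ATP, were among the least abundant members, with Hspb1 lowest of all. Cryab (chromosome 9, 50745951 to 50756636) had 1.39, 0.87 and 1.13 in the Bic libraries, against 0.73 and 1.05 in the DMSO libraries. Its groups overlapped, and its log2 fold change of 0.24 had a wide 95% interval (-0.25 to 0.72). In the NMP peptides (PK) libraries it had 1.62, 1.27 and 1.05, at a log2 fold change of 0.42 against DMSO that was not called (95% interval -0.06 to 0.91, limma adjusted p = 0.9998). These values lay above both DMSO libraries, narrowly in replicate 3, where 11% of all genes had groups that did not overlap. Cryab shares 17.0% of its exon bases with Hspb2 on the opposite strand. Hspb1 (chromosome 5, 135887919 to 135889563) had a value in 11 of 14 libraries, from -3.44 to -2.44, and fell under the filter. In a fit without the filter limma called it in 0 of 10 comparisons, also at an unadjusted p under 0.05.

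The members also differed in how much they varied within groups. The pooled SD of log2 signals within groups was 0.18 for Dnajb1, against a median of 0.11 for the 1000 genes nearest to it in level, and 0.33 for Hspa1b, against 0.19. It was 0.28 for Cryab, against 0.17, and 0.06 for Hsp90aa1, against 0.10. Over the 9 tested members, the median log2 fold change in Bic against DMSO was 0.04, against -0.03 over all genes.

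The separation of Dnajb1 from the other members in Bic was examined within libraries, by the difference of log2 signals. Dnajb1 minus Hspa8 averaged -4.94 ± 0.37 in the Bic libraries (SD, n = 3), against -5.75 ± 0.25 in the other 11 (SD, n = 11). For the 8 other tested members, the difference was 0.70 to 0.90 higher in Bic than in the other 11 libraries. Dnajb1 alone was 0.88 higher. A two-sided exact permutation test over the libraries gave p = 0.00549, the smallest that 364 assignments allow, for Dnajb1 alone and for its difference from Hsph1, Hsp90aa1, Hspe1, Cryab and Hsf1. It gave 0.011 for Hspa1a and Hspa8 and 0.0659 for Hspa1b. All 8 differences share the signal of Dnajb1, so these p-values, which are not adjusted for the 8 members, restate its rise and say nothing about the other members.

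That test was the last of 3 that were run, and the 3 did not agree. With the differences added as rows to the limma table, 1 of 8 was called in Bic against DMSO (Hsph1, adjusted p = 0.03818). With limma on Dnajb1 minus every gene, 8 of 8 were called, but so were 98.9% of all genes. The gap is likewise not particular to the members: Dnajb1 minus the gene was above the other 11 libraries in every Bic library for 79.1% of all genes.

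The wider chaperone network was followed through 90 further genes in 8 lists, of which 81 were tested. In Bic against DMSO, limma called 0 of the 81, with 5 higher and 0 lower at an unadjusted p under 0.05 (3.14% of all genes passed that level). Their median log2 fold change was -0.02, against -0.03 over all genes. The largest change in the list, for 7 of the 8 lists, was 0.38 for the J-domain gene Dnajb4, 0.32 for the HSP70-like Hspa14, 0.28 for the endoplasmic reticulum J-domain gene Dnajb9, 0.16 for the prefoldin subunit Pfdn4, -0.02 for Hsp90ab1, -0.14 for the HSP70 co-chaperone Bag4 and -0.26 for the small heat shock gene Hspb6. None of these 7 was called (limma, adjusted p = 0.9965 for each).

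Dnajb4, the nearest of these to Dnajb1 in size of change, had 4.28, 3.94 and 4.54 in the Bic libraries, against 3.78 and 3.97 in the DMSO libraries. The groups overlapped through Bic replicate 2. By contrast, 6 of 7 activity-regulated index genes were called higher in the same comparison, with a median log2 fold change of 3.38 over the 7.

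In the fit reported, genes of the wider lists were called only in comparisons with NMP peptides APV, and these were the HSP70 co-chaperones Sgtb and Bag4. Against DMSO this was 1 of 81, where 0.625% of all genes were called. In Bic, NMP peptides and NMP peptides (PK), each compared with NMP peptides APV, 2 of 81 were called. The shares of all genes called there were 3.33%, 1.43% and 1.39%. Sgtb, a tetratricopeptide-repeat protein that binds HSP70, had 3.33, 3.35 and 3.48 in the NMP peptides APV libraries, against 4.00 and 4.00 in the DMSO libraries. It lay below every library of the other 4 groups, and how many of all genes did so was not counted. Against DMSO it fell by 0.61 on the log2 scale (SE 0.08, limma adjusted p = 0.002828), a comparison in which 0.45% of all genes were called lower. It was also lower than in NMP peptides (PK), by a log2 fold change of -0.52 (limma, adjusted p = 0.002709). Relative to NMP peptides APV, Sgtb was higher by 0.56 in Bic and by 0.49 in NMP peptides (limma, adjusted p = 0.0003642 and 0.003584).

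Bag4, whose BAG domain releases nucleotide from HSP70, had its highest values with APV. It had 3.64, 3.60 and 3.72 in the NMP peptides APV libraries, against 3.29 and 3.29 in the DMSO libraries, a log2 fold change of 0.36 that was not called (limma, adjusted p = 0.06602). Against NMP peptides (PK) the log2 fold change was 0.51 (limma, adjusted p = 0.003644). Relative to NMP peptides APV it was -0.51 in Bic and -0.43 in NMP peptides (limma, adjusted p = 0.0009217 and 0.008965). The call of Sgtb against DMSO was lost without DMSO replicate 3, without the 4 libraries with the highest Gfap and in a fit of the 2 groups alone, each of which left 0 genes of the wider lists called. Median centring and array weights each called 2 there. They called 70 and 93 of all 10877 genes, where the fit reported called 68. With array weights there were 4 calls in Bic, 5 in NMP peptides and 4 in NMP peptides (PK), each compared with NMP peptides APV, where the fit reported had 2 in each. Over all 10877 genes array weights called 836, 615 and 571 there, where the fit reported called 362, 156 and 151. Leaving out Bic replicate 2, or using array weights, made 1 call in Bic against NMP peptides (PK), where there had been 0. These settings called 68 and 88 of all genes, against 58 in the fit reported. Leaving out Bic replicate 1 made 5 calls in Bic against NMP peptides APV, and leaving out NMP peptides APV replicate 3 left 1 in NMP peptides against NMP peptides APV, where there had been 2 in each. These omissions called 279 and 57 of all genes, against 362 and 156 in the fit reported.

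**Figure D3:**
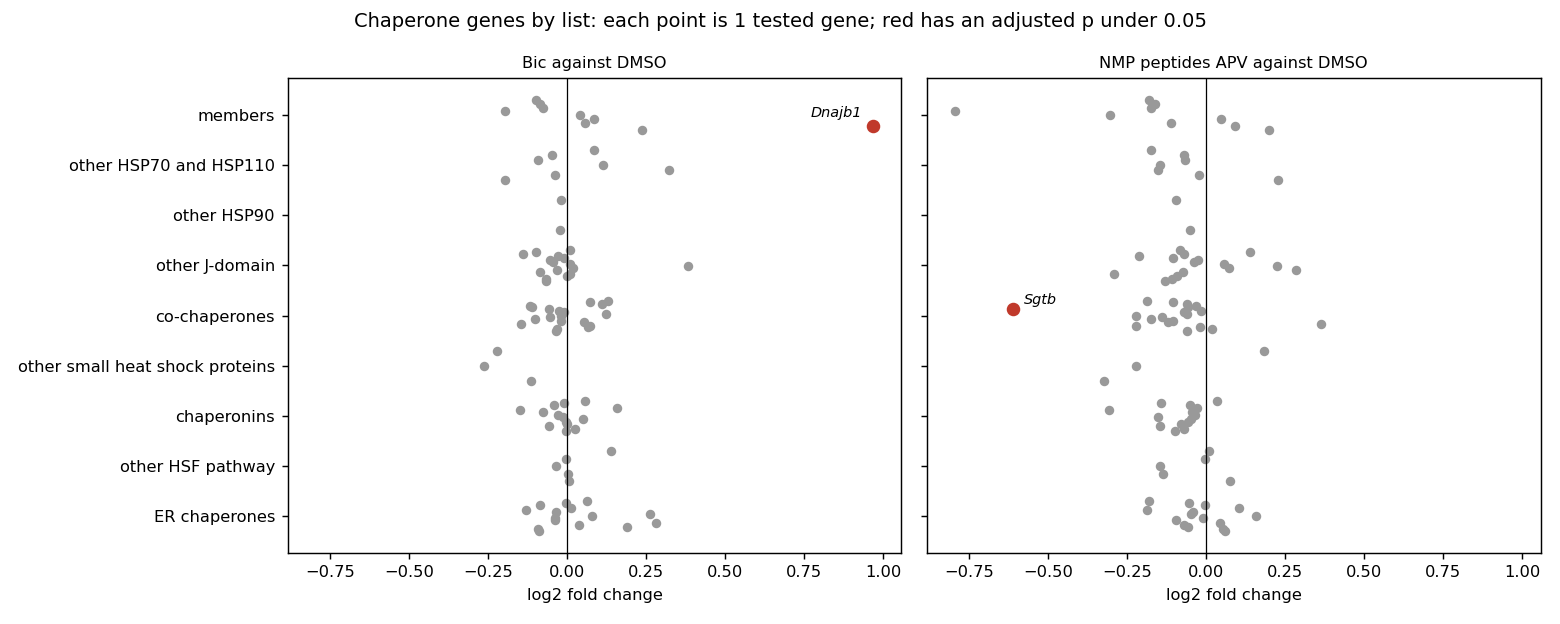
Log2 fold change of each tested chaperone gene (points), by list, in Bic against DMSO and in NMP peptides APV against DMSO. The called genes, in red, are Dnajb1 at 0.97 in Bic and Sgtb at -0.61 with APV.

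Genes were ranked by how closely their signal followed that of Dnajb1 across the 14 libraries. The 8 highest Pearson correlations were those of Egr3 (0.974), Arc (0.96), Egr2 (0.954), Fgf5 (0.953), Egr4 (0.952), Ier2 (0.951), Dusp1 (0.946) and Fbxo33 (0.945). Egr2, Egr3 and Egr4 encode immediate-early zinc finger transcription factors, Arc a synaptic protein, Dusp1 a phosphatase of MAP kinases and Fgf5 a growth factor. In Fgf5, Bic replicate 2 (0.89) lay below NMP peptides replicate 1 (1.16) and replicate 2 (0.93), so its groups overlapped. Over the 11 libraries without Bic the correlations were lower for 7 of the 8, as for Egr3 (0.911) and Dusp1 (0.787), and 0.962 for Fgf5. The members correlated less with Dnajb1, from -0.056 for Hspe1 to 0.601 for Hsp90aa1. Libraries share preparation and composition, so these values describe likeness only.

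Arc, for example, had 6.65, 5.78 and 6.57 in the Bic libraries, against 1.74 and 2.63 in the DMSO libraries. As in Dnajb1, Bic replicate 2 was the lowest of its group. In NMP peptides against DMSO, Arc had a log2 fold change of 1.64 that was not called (limma, adjusted p = 0.4402), where that of Dnajb1 was 0.22. After the group means were subtracted, Fgf5 was closest (0.956), followed by Rhbdl3 (0.953), Cpeb3 (0.944), Ppp3ca (0.937), Trib1 (0.935), Cck (0.927), Anxa11 (0.921) and Rprml (0.921). Over the 11 libraries without Bic these 8 had correlations from 0.407 for Anxa11 to 0.962 for Fgf5. Those were taken on signals with the group means left in, so the 2 measures are not alike.

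**Figure D4:**
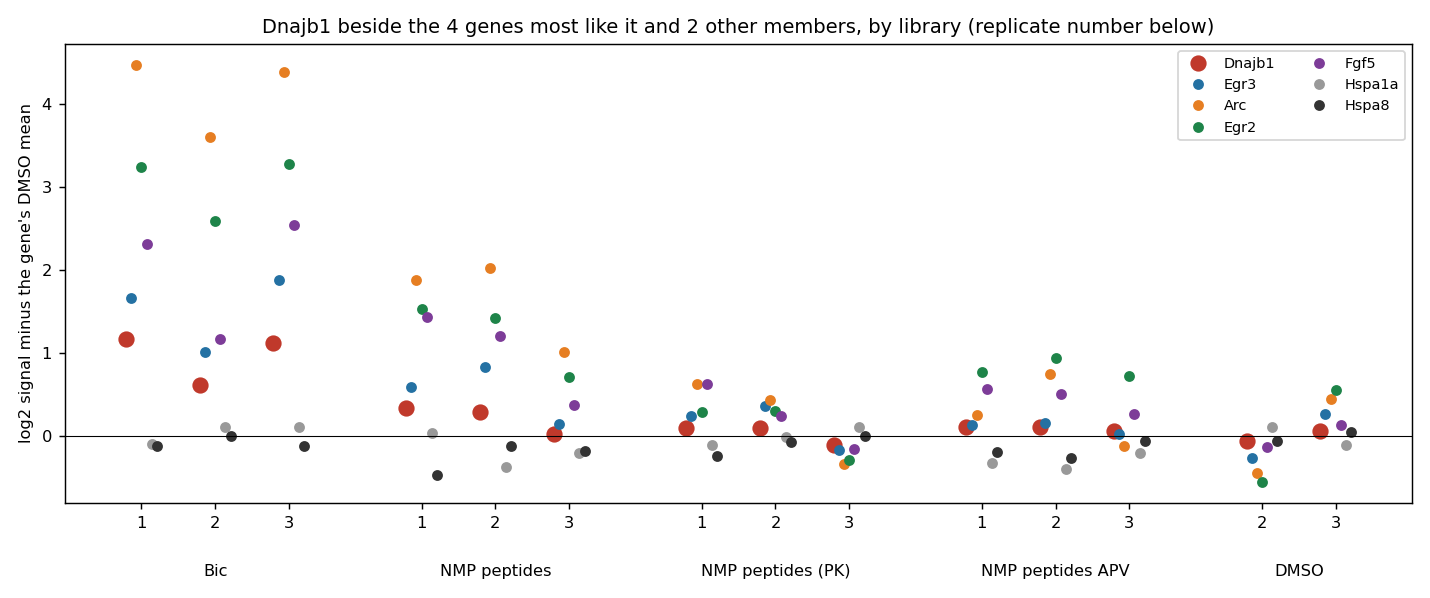
Log2 signal minus the DMSO mean of the same gene, in each library by group, for Dnajb1, the 4 genes most like it and the members Hspa1a and Hspa8. Arc, Egr2, Egr3 and Fgf5 follow Dnajb1 with larger steps in Bic and also in NMP peptides, while Hspa1a and Hspa8 stay near or below 0.

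The libraries differed in the astrocyte marker Gfap, and Dnajb1 was lowest in its group where Gfap was high. Gfap was 2.67, 4.18 and 3.47 in the Bic libraries. It was 4.15 in NMP peptides replicate 3, 3.97 in NMP peptides (PK) replicate 3 and 2.15 to 2.87 in the remaining peptide libraries, against 4.13 and 2.68 in the DMSO libraries. In each of the 4 libraries with the highest Gfap, Dnajb1 was the lowest of its group, and so was Cryab. Of all genes, 7.4% were lowest in all 4. The other astrocyte markers did not all rise with Gfap. In Bic replicate 2, Aqp4, Aldh1l1, Slc1a3, Slc1a2, Gjb6, Gja1, S100b and Sox9 were the lowest of their group, and Aldoc was not. Markers of other cell types went both ways: Dcn and Cnp were the highest of their group in each of the 4 libraries, and Olig1 was the lowest. High Gfap serves here as a label for these 4 libraries, and their cell composition was not tested.

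For the whole astrocyte list, the summed antilogged signal of the 10 markers was 368 to 399 in Bic, 337 to 399 in NMP peptides, 353 to 383 in NMP peptides (PK), 414 to 429 in NMP peptides APV and 381 to 382 in DMSO, and each marker had a value in every library. Without those 4 libraries, which leaves 1 DMSO library and removes the lowest Dnajb1 value of each group that held one, the log2 fold change of Dnajb1 in Bic against DMSO was 1.08 (limma, adjusted p = 0.0005292). Since low values of Dnajb1 went with the libraries removed, this value does not bear on the part of Gfap, which was not tested.

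**Figure D5:**
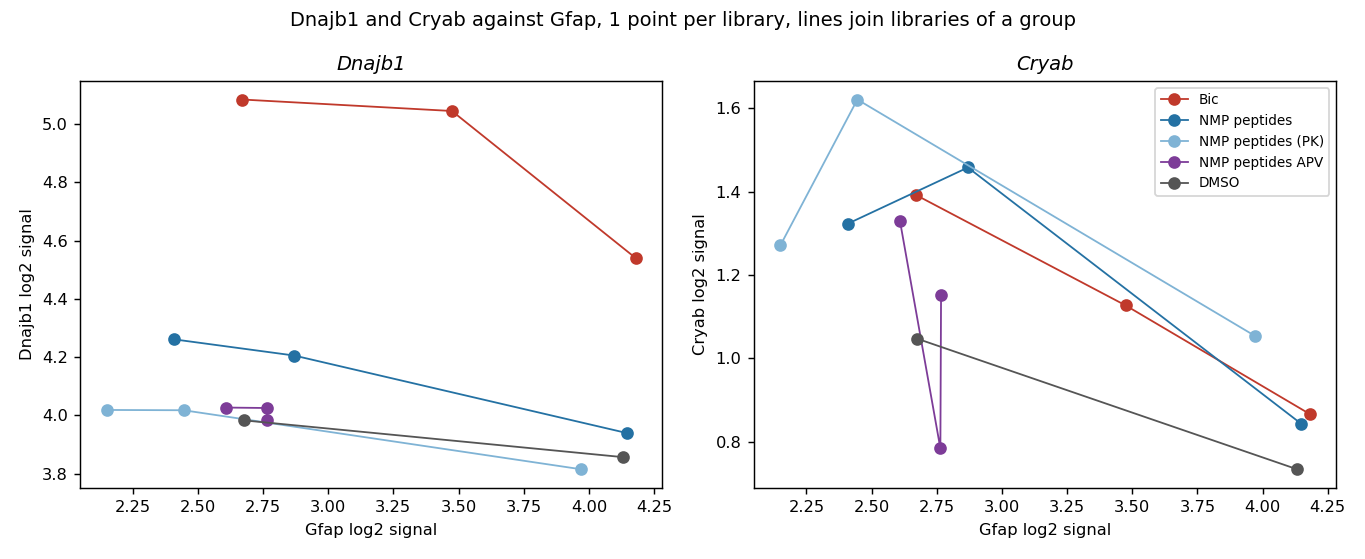
Log2 signal of Dnajb1 and Cryab against that of Gfap in each library (points), with lines joining libraries of a group. Within the 4 groups that hold a library with Gfap near 4, that library has the lowest Dnajb1 and Cryab, and the Bic libraries of Dnajb1 stay above 4.5 throughout.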

How the data were processed

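The authors deposited 1 table for the 14 libraries, in which each feature has a quantile-normalised log2 signal, a score with a mark in place of missing values. GRCm38.p6 is the genome build named, per the submitters' processing notes. Which aligner, counter and gene annotation were used is not given in the sources used here. Antilogged values times exon length in kilobases summed to 1180000 to 1270000 per library. Depth is unknown, and quantile normalisation hides any change in total RNA.

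Of the 45802 features, 18128 had a value in some library. Of those, the lowest 40% by mean signal were dropped, leaving 10877 genes with 0 missing values. limma 3.58.1 in R 4.3.3 fitted a mean for each group over all libraries, moderating variances with a trend on signal. Tests were two-sided, with Benjamini-Hochberg adjustment over all genes in each of the 10 comparisons, and calls were made under 0.05. The fit was tested on simulated data.

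The members and lists were chosen with earlier results of these data known. All members were described. Of the wider lists, every called gene and the largest change per list in Bic against DMSO were named (for 1 list it is not reported here), and the 8 genes most like Dnajb1 by each of 2 measures, without predicted models. Dnajb1 was set against each other member by an exact permutation test (scipy 1.17.1). That test, and its pooling of the 11 libraries without bicuculline, were chosen after seeing the data and after 2 limma versions had given differing calls. The first read its variance trend from the mean of a difference. The second shared the noise of Dnajb1 across all rows.

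Same-numbered libraries of 2 groups were treated as pairs where each of 3 pairs had a correlation over 0.1 between their deviations from the group means. Only NMP peptides with NMP peptides (PK) met this (0.51, 0.499 and 0.613), and no label states a pairing. DMSO has 2 libraries, so its comparisons could not meet the rule. Its 2 pairs had 0.54 and 0.17 with Bic and 0.30 and 0.35 with NMP peptides APV. They were negative with NMP peptides and with NMP peptides (PK).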

Additional observations from a re-analysis of the deposited data

How the results depend on the processing

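In Bic against DMSO, Dnajb1 stayed called in 12 of 14 alternatives. The members called went to 0 without DMSO replicate 2 (log2 fold change 0.9065, adjusted p = 0.06387 by limma) and with only the 2 groups fitted (0.9697, adjusted p = 0.1121). Leaving out each library in turn gave 0.8724 to 1.145 and 0 to 1 members called. In Bic against NMP peptides, 0 members were called without the filter (limma, adjusted p = 0.118), without the variance trend (0.05054) and with only the 2 groups fitted (0.2997), and 0 to 1 when single libraries were left out. Array weights called 1 member in NMP peptides against NMP peptides APV (Hsf1, 0.32, limma adjusted p = 0.04953) and 1 in NMP peptides APV against NMP peptides (PK) (Hspa1a, -0.36, limma adjusted p = 0.03927). Over all 10877 genes array weights called 615 and 571 there, where the fit reported called 156 and 151. The limma versions of the Dnajb1-minus-member test, run before the permutation test that passed 7 of 8 at an unadjusted p under 0.05, called 1 and 8 of 8. The cause of these changes was not tested. No result turned its direction.

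With the replicate number as a block, Dnajb1 in Bic against DMSO was 0.92 (limma, adjusted p = 0.009884), and no call of a member changed. For the paired NMP peptides and NMP peptides (PK) the block on those groups alone, added after seeing the data, called 0 members. DMSO had 2 libraries, and leaving 1 out assumes that the other varies like the remaining groups.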
